A study of Homo sapiens with 6 samples.

Results

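The cleavage and polyadenylation factors described here are 10 protein-coding genes whose products cut a nascent transcript and prepare it for its poly(A) tail. They were chosen by symbol from the gene tables: NUDT21, CPSF6 and CPSF7 of cleavage factor Im, CPSF1, CPSF2, CPSF3 and CPSF4 of the cleavage and polyadenylation specificity factor, and CSTF1, CSTF2 and CSTF3 of the cleavage stimulation factor. All 10 were found among 28265 gene symbols, and all 10 passed the low-count filter that left 14315 genes for testing. The cells were LN229, an established human glioblastoma line grown in DMEM with serum. One group of 3 RNA-seq libraries has the genotype label WT and is called control below, and the other group of 3 has the label TRIM25 knockdown, with a short hairpin RNA (shTRIM25) by the series design. Control titles also carry the letters NC, whose meaning no label gives, and the number of hairpins, clones or separate cultures behind the libraries is not given in the sources used here. The p-values therefore measure the spread between these libraries, which may be technical.

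Most human messenger RNAs end where the polyadenylation machinery cuts them, downstream of an AAUAAA-like hexamer. The specificity factor binds this hexamer through CPSF4 and its partner WDR33, and its CPSF3 subunit is the nuclease that cuts. The stimulation factor binds a U- or GU-rich element beyond the cut through CSTF2, and cleavage factor Im binds UGUA motifs upstream and is known for steering the choice between proximal and distal sites, a choice with reported links to glioblastoma growth. Gene-level counts measure how much messenger RNA each factor has, and not which poly(A) sites were used.

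The libraries held between 11349865 and 16404725 counted reads. TRIM25, the targeted gene, stood at 35.3, 35.8 and 35.6 CPM (read counts scaled to a common library size) in the control libraries and at 80.3, 80.0 and 88.5 CPM in those labelled knockdown. This is 2.34-fold more messenger RNA under the knockdown label (log2 fold change 1.22 ± 0.07 SE, adjusted p = 3.23e-09, edgeR quasi-likelihood test with Benjamini-Hochberg adjustment, used for each adjusted p below). Every direction given here is therefore that of the libraries labelled knockdown against control, and cannot be read as an effect of losing TRIM25. Of the glial markers S100B, SOX2 and NES were abundant (509.8, 173.5 and 608.9 CPM on average in control), and OLIG2 was low at 7.52 CPM. GFAP averaged 0.509 CPM and SOX9 0.910 CPM, so these astrocytic markers were near 0. The mesenchymal markers VIM, CD44 and EGFR averaged 3475.2, 588.4 and 60.5 CPM in control. EPCAM, CDH1, PTPRC, PECAM1 and RBFOX3, markers of other cell types, averaged at most 0.518 CPM in both groups. CD68, also on that list of other cell types, was not near 0, at 44.9 CPM on average in control and 63.3 CPM under the knockdown label. Between the groups SOX2 fell by 0.66, S100B fell by 0.33 and OLIG2 fell by 0.67 on the log2 scale, while NES rose by 0.27 and the macrophage-associated gene CD68 by 0.49. The part of these shifts in the results below was not tested. In bulk RNA, fewer cells that express a gene and less of its RNA per cell cannot be told apart.

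Cleavage factor Im held the member with the clearest difference. NUDT21 encodes the small subunit, the one that contacts the UGUA motif. Its level was 183.22, 181.48 and 170.76 CPM in control and 207.57, 218.47 and 216.62 CPM under the knockdown label. All 3 labelled libraries lay above all 3 control libraries. The mean rose from 178 ± 6.75 to 214 ± 5.83 CPM (SD, n = 3 per group), a 1.20-fold difference with a 95% interval of 1.10 to 1.30 (log2 fold change 0.26 ± 0.06 SE, adjusted p = 0.00299, edgeR). NUDT21 passed the threshold in each of the 13 other settings tried, with log2 fold changes between 0.20 and 0.29.

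The large subunits of cleavage factor Im, which carry the arginine-rich domains and pair with NUDT21, did not pass the test. CPSF6 stood at 159.89, 159.57 and 164.56 CPM in control and at 169.34, 172.34 and 176.74 CPM under the knockdown label. Its groups did not overlap, but the interval of its log2 fold change ran from -0.02 to 0.22 (0.10 ± 0.06 SE, adjusted p = 0.211, edgeR). CPSF7 stood at 144.85, 145.07 and 140.39 CPM in control against 152.35, 150.77 and 144.90 CPM, so that 1 labelled library lay within the control range (log2 fold change 0.06, interval -0.06 to 0.18, adjusted p = 0.499, edgeR).

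**Figure D1:**
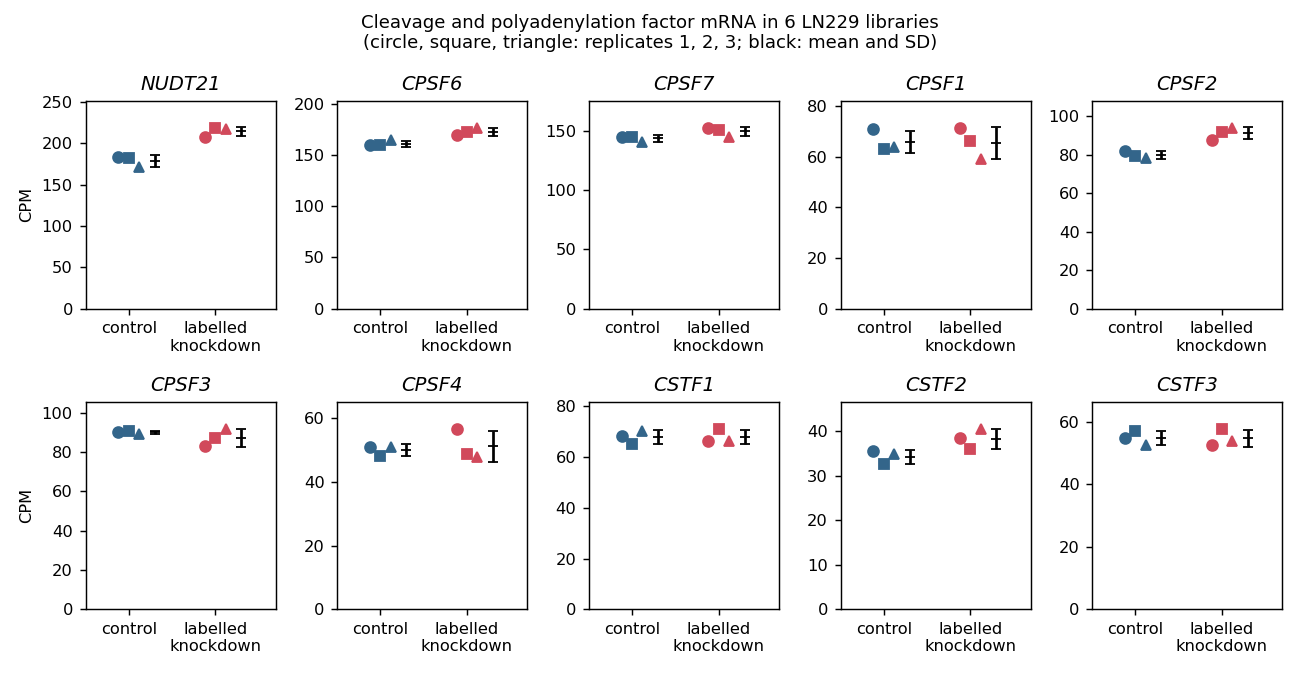
Level of each of the 10 factors in CPM (vertical axes, from 0) in the 3 control libraries and the 3 libraries labelled knockdown; each point is a library and the black bar is the mean with its SD. NUDT21 and CPSF2 passed the edgeR test, and the groups of CPSF6 and CSTF2 were also apart.

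In the specificity factor, 1 of 4 members passed the test. CPSF2, the catalytically inactive partner of the CPSF3 nuclease, stood at 82.08, 79.35 and 78.33 CPM in control and at 87.63, 91.74 and 93.92 CPM under the knockdown label. The groups did not overlap, and the mean rose from 79.9 ± 1.94 to 91.1 ± 3.20 CPM (SD, n = 3 per group). The fold was 1.14 with an interval of 1.04 to 1.25 (log2 fold change 0.19 ± 0.06 SE, adjusted p = 0.0364, edgeR). It no longer passed when control replicate 2 (adjusted p = 0.136), control replicate 3 (0.145), labelled knockdown replicate 2 (0.132) or labelled knockdown replicate 3 (0.101) was left out, although the log2 fold change stayed between 0.17 and 0.22 in the 6 fits that leave out a library. It was also lost when gene length and GC content were taken into account, as described below.

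CPSF3, the endonuclease, stood at 90.13, 90.88 and 89.15 CPM in control and at 82.88, 86.96 and 91.84 CPM under the knockdown label. The labelled group was the more scattered and spanned the control values (log2 fold change -0.04, interval -0.18 to 0.09, adjusted p = 0.654, edgeR). CPSF1, the large scaffold subunit, ranged from 63.10 to 71.07 CPM in control and from 59.08 to 71.47 CPM under the knockdown label (log2 fold change -0.01, interval -0.18 to 0.15, adjusted p = 0.913, edgeR). CPSF4, a zinc finger protein that contacts the AAUAAA hexamer, ranged from 48.02 to 51.07 CPM and from 47.85 to 56.72 CPM (log2 fold change 0.03, interval -0.13 to 0.19, adjusted p = 0.824, edgeR). For these 3 genes the intervals include 0 and the sizes between the bounds given.

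None of the 3 members of the stimulation factor passed the edgeR test, 0 passed with DESeq2 or limma-voom, and 1 (CSTF2) had an unadjusted p under 0.05. CSTF2, the subunit that binds the downstream U- or GU-rich element, stood at 35.41, 32.49 and 34.73 CPM in control and at 38.32, 35.88 and 40.49 CPM under the knockdown label. Its groups did not overlap, with means of 34.2 ± 1.53 and 38.2 ± 2.31 CPM (SD, n = 3 per group), and its interval lay just above 0, from 0.0021 to 0.32 (log2 fold change 0.16 ± 0.08 SE). After adjustment over all genes it missed the threshold (adjusted p = 0.134, edgeR). CSTF1, a WD40-repeat subunit, and CSTF3, the scaffold that joins the other subunits, had log2 fold changes of -0.00081 (interval -0.14 to 0.14) and -0.0033 (interval -0.15 to 0.14), with adjusted p of 0.994 and 0.981 (edgeR). CSTF2T, the autosomal paralogue of CSTF2, was at 57.4 ± 2.01 CPM in control and 59.2 ± 3.0 CPM under the knockdown label (log2 fold change 0.04, adjusted p = 0.686, edgeR); reads shared between these similar sequences may be split by the counting.

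Over the 10 factors, 2 rose and 0 fell by the edgeR test, against 12.2% of all tested genes called higher and 11.0% called lower. With 23.3% of all genes called in either direction, 2 of 10 is close to the background. At an unadjusted p under 0.05 the counts were 3 higher and 0 lower. No count over all genes is given here for that threshold. DESeq2 and limma-voom each called 2 higher and 0 lower. Over all 14315 tested genes DESeq2 called 1397 higher and 1175 lower, and limma-voom 1746 and 1581. The groups did not overlap for 4 of 10 factors (NUDT21, CPSF6, CPSF2 and CSTF2, each higher under the knockdown label), against 37.3% of all tested genes (18.3% higher and 19.0% lower). The median log2 fold change of the 10 was 0.04, with a range from -0.04 to 0.26, beside a median of -0.0038 over all tested genes. In size, the differences of these factors were well below the 1.22 of TRIM25.

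The order of the levels was read from FPKM, the deposited value that divides the count by library total and by gene length. NUDT21 was at the top with a mean of 44.6 FPKM over the 6 libraries (range 39.0 to 49.6), and CPSF7 followed with 39.0 (range 37.6 to 40.5). NUDT21 exceeded CPSF7 within each of the 6 libraries, though their ranges overlapped. CPSF6, CPSF4 and CPSF3 came next at 24.9, 24.6 and 24.5 FPKM and could not be ordered, with overlapping ranges and CPSF6 above CPSF4 in 3 of 6 libraries. CSTF3, CSTF1, CPSF1 and CSTF2 followed at 17.2, 15.8, 14.7 and 13.6 FPKM, each neighbouring pair with overlapping ranges. CPSF2 was lowest at 6.46 FPKM (range 5.95 to 7.06), the 1 factor below the median of 7.53 FPKM of all tested genes, and its range was apart from that of CSTF2. The deposited lengths behind these values differ widely between genes: 13226 bp for CPSF2 against 4393 bp for NUDT21. A length that holds rarely used exons lowers the FPKM.

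**Figure D2:**
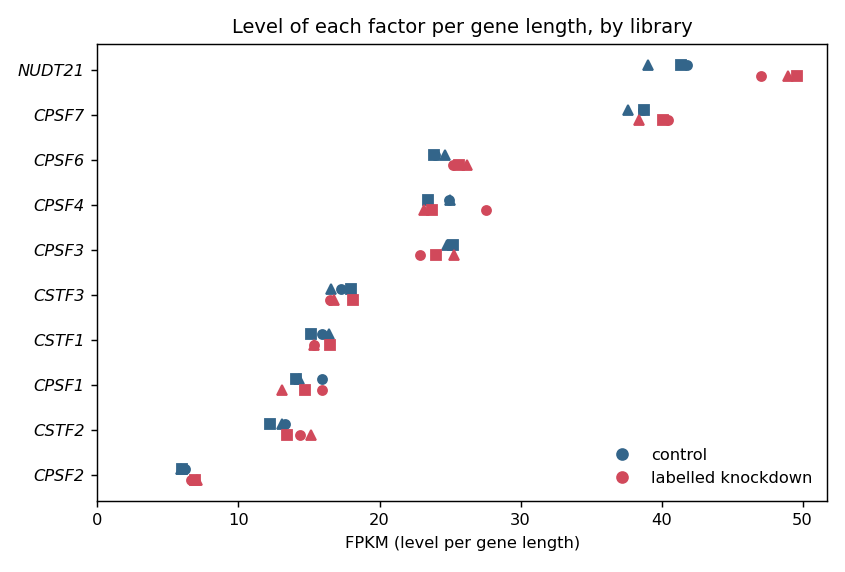
FPKM, a level per gene length, of the 10 factors (horizontal axis), ordered by their mean over 6 libraries; each symbol is a library, blue for control and red for labelled knockdown. NUDT21 and CPSF7 lie above the others, CPSF6, CPSF4 and CPSF3 cannot be ordered, and CPSF2 is lowest.

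Ratios between subunits within a library do not depend on how the libraries are scaled to each other. The ratio of NUDT21 to the sum of CPSF6 and CPSF7 was 0.667, 0.661 and 0.627 in control and 0.717, 0.754 and 0.758 under the knockdown label, computed from FPKM. The groups did not overlap, with means of 0.652 ± 0.0217 and 0.743 ± 0.0228 (SD, n = 3 per group), a log2 difference of 0.19. The exact two-sided permutation test gave p = 0.1, the smallest that 3 against 3 libraries allow, and 0.2 after adjustment over the 4 ratios examined. NUDT21 messenger RNA was thus higher relative to its large partners in each labelled library, a difference larger than the spread but not one this design can call.

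The ratio of CPSF3 to CPSF2 also separated the groups, at 4.13 ± 0.0932 in control and 3.50 ± 0.0654 under the knockdown label (log2 difference -0.24, exact permutation p = 0.1, adjusted 0.2). These are the members of the nuclease pair, and the difference combines a CPSF2 that was higher and a CPSF3 whose mean was slightly lower. It moves with the length and GC trend described below: with that trend removed, the log2 fold changes of CPSF2 and CPSF3 were 0.00094 and -0.06, and neither was called (adjusted p = 0.991 and 0.290, edgeR). The ratio of CPSF7 to CPSF6 was 1.59 ± 0.0561 and 1.54 ± 0.0729 (log2 difference -0.04, exact permutation p = 0.5). CSTF2T to CSTF2 was 1.09 ± 0.0876 and 1.01 ± 0.0912 (log2 difference -0.12, exact permutation p = 0.4), and the groups of both of these ratios overlapped. The other ratios shift with the trend as well. With it removed, the log2 fold changes were 0.00039 for CSTF2T and 0.22 for CSTF2. Those of NUDT21, CPSF6 and CPSF7 were 0.20, 0.0039 and 0.08.

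**Figure D3:**
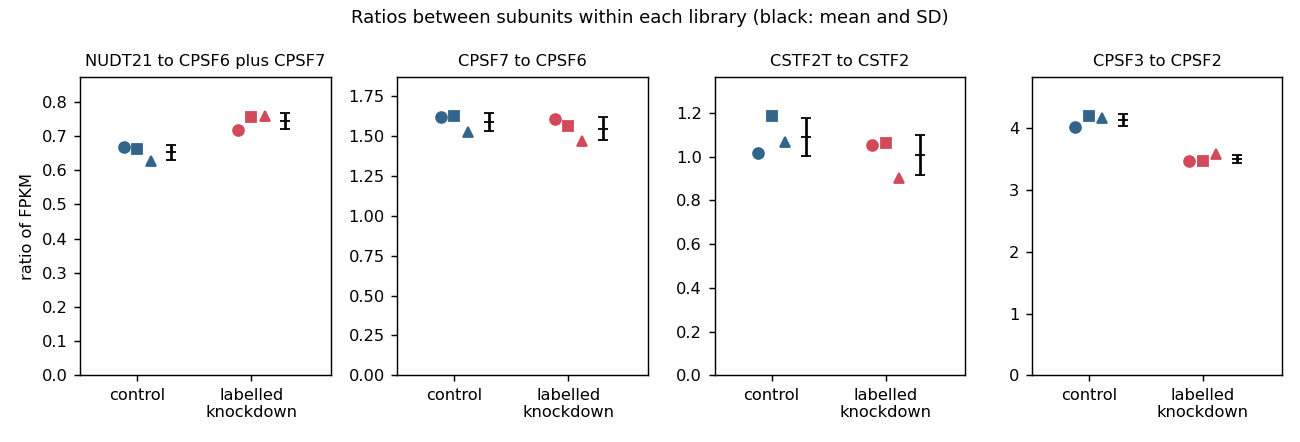
Ratio of FPKM between subunits in each library (vertical axes, from 0), for 4 pairs; points are libraries and black bars the mean and SD of 3 libraries. The groups are apart for NUDT21 to CPSF6 plus CPSF7 (0.652 and 0.743) and for CPSF3 to CPSF2 (4.13 and 3.50), and overlap for the other pairs.

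Gene length and GC content moved with the comparison as a whole. Across 14315 tested genes the log2 fold change had a Spearman rho of 0.30 with length, and across the 13640 with a GC value a rho of -0.26 with GC content. These are descriptions across genes, which share the same libraries and are not independent replicates. When a smooth trend on length and GC was taken out of each library, NUDT21 kept its call, with a log2 fold change of 0.20 (interval 0.12 to 0.28, adjusted p = 0.000255, edgeR). CPSF2, the longest member, went to 0.00094 (interval -0.10 to 0.10, adjusted p = 0.991, edgeR), and CPSF6 to 0.0039. CSTF2 passed instead, at 0.22 (interval 0.09 to 0.35, adjusted p = 0.0106, edgeR). In this fit 2 members were called higher and 0 lower, and the median of the 10 was 0.01. Of these 2, 1 was shared with the fit that kept the trend. Over all 14315 tested genes the calls went from 1753 higher and 1577 lower to 2290 higher and 2261 lower. Whether the trend is technical was not tested, and removing it also removes any difference between the groups that follows length or GC.

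**Figure D4:**
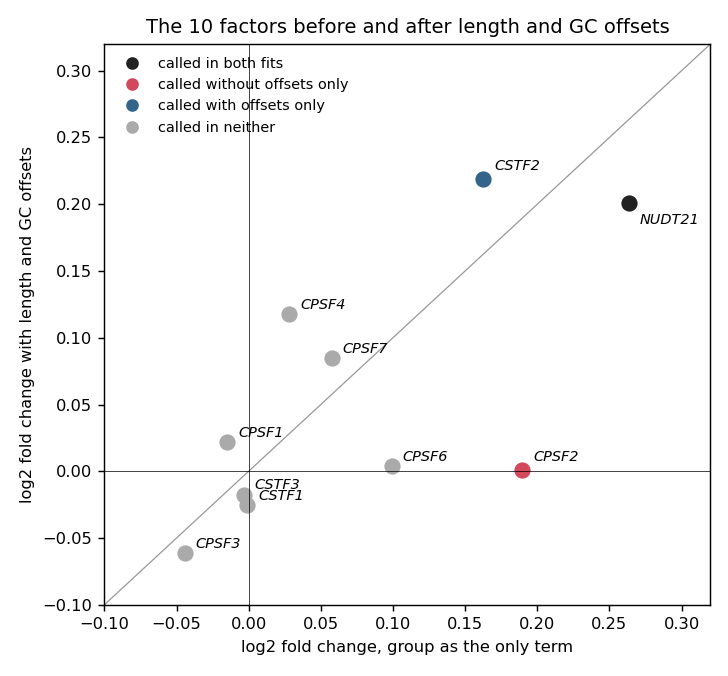
Log2 fold change of each of the 10 factors with group as the only term (horizontal axis) and after the length and GC trend was removed (vertical axis); each point is a gene and the diagonal marks equal values. NUDT21 passed the edgeR threshold in both fits, CPSF2 only in the first (0.19, then 0.00094) and CSTF2 only in the second (0.16, then 0.22).

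The promoters of the called members are shown because NUDT21 and CPSF2 each share their promoter region with a gene read in the opposite direction. NUDT21 lies head to head with OGFOD1, which encodes a ribosomal protein hydroxylase, with 192 bases between the annotated starts. CPSF2 lies 263 bases from NDUFB1, a subunit of mitochondrial complex I. The sequences are the strand of NUDT21 or CPSF2, read 5′ to 3′ and ending at the base before the gene's start, from RefSeq on GRCh38.p14. The NUDT21 sequence is the whole stretch between the starts (chr16:56451333-56451523, minus strand), and the CPSF2 sequence is the nearest 250 bases (chr14:92121719-92121968, plus strand). Capitals mark matches, on either strand, to the ETS motif CCGGAAG, the CCAAT box CCAAT, the E-box CACGTG and the GC box GGGCGG.
NUDT21: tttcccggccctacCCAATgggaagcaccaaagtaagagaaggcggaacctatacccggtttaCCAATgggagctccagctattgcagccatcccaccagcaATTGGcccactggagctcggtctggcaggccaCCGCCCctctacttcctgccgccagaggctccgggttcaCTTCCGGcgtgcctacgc
CPSF2: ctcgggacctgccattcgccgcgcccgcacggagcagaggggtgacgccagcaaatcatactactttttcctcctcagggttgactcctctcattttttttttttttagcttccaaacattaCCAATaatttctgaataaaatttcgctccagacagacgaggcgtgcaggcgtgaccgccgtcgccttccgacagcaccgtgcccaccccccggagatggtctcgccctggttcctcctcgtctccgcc
The NUDT21 stretch held 5 matches: a reverse ETS match 18 bases upstream of its start, a reverse GC box at 57, and CCAAT boxes at 89, 128 and 177, the nearest of them reversed. The CPSF2 stretch held 1, a CCAAT box at 128.

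A promoter window of 300 bases was present in the RefSeq table for 9 of the 10 factors. The ETS motif, which is the core bound by factors such as GABPA, occurred in 6 of these 9 windows (NUDT21, CPSF7, CPSF3, CSTF1, CSTF2 and CSTF3), against 18.9% of the 10989 tested genes with a window. The CCAAT box, the element of NF-Y, occurred in 6 of 9 (NUDT21, CPSF6, CPSF2, CPSF4, CSTF1 and CSTF3), against 36.8%. The GC box occurred in 6 of 9, against 69.1%, and the E-box that MYC can bind in 0 of 9, against 10.1%. A match describes letters and not binding, and no match says only that these letters are absent from the window.

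The divergent neighbours did not move uniformly with the factors. OGFOD1 stood at 52.27, 49.98 and 54.22 CPM in control and at 56.39, 61.86 and 60.49 CPM under the knockdown label. Its groups were apart like those of NUDT21, as were those of 37.3% of all tested genes. The log2 fold change of OGFOD1 was 0.19 ± 0.07 SE and just missed the threshold (adjusted p = 0.0513, edgeR). Of the 13 other settings it passed in 2, with another scaling (RLE, adjusted p = 0.0480) and without labelled knockdown replicate 1 (0.00826). In the rest OGFOD1 was not called, with adjusted p up to 0.213 (edgeR). Removing the length and GC trend gave 0.14 (adjusted p = 0.0537, edgeR). NDUFB1, beside CPSF2, had a log2 fold change of -0.13 (adjusted p = 0.370, edgeR). SDHAF2, an assembly factor of succinate dehydrogenase beside CPSF7, had -0.12 (adjusted p = 0.216, edgeR). The SDHAF2 groups were also apart, in the lower direction (47.49 to 52.77 CPM in control, 45.43 to 46.69 CPM under the knockdown label).

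Lower levels were called in the neighbours of 2 factors that themselves did not pass. The neighbours tested were OGFOD1, SDHAF2, NDUFB1, ITGB1BP1 and AURKA, and 11.0% of all tested genes were called lower. ITGB1BP1, an integrin-binding adaptor beside CPSF3, went from 70.8 ± 5.01 to 60.6 ± 1.99 CPM (log2 fold change -0.23, adjusted p = 0.0270, edgeR). AURKA, the mitotic kinase beside CSTF1, went from 95.1 ± 3.57 to 82.8 ± 2.78 CPM (log2 fold change -0.20, adjusted p = 0.0305, edgeR). Both calls were lost without control replicate 2, control replicate 3 or labelled knockdown replicate 2, and that of ITGB1BP1 also without labelled knockdown replicate 3 (adjusted p from 0.0748 to 0.176 over these fits). With the length and GC trend removed both were called, at -0.27 (adjusted p = 0.00144) and -0.17 (adjusted p = 0.00595, edgeR). Over the 13 other settings ITGB1BP1 was called in 8 and AURKA in 9. PTCD1 beside CPSF4 and CSTF3-DT beside CSTF3 had at most 8 reads per library and were not tested. No partner within 1000 bases was annotated for CPSF6 and CSTF2, and that of CPSF1 was not analysed here.

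The remaining genes of RNA 3′ end formation were followed in 8 lists of 81 genes, of which 80 were tested. By the edgeR test 16 rose and 7 fell, beside 12.2% and 11.0% of all tested genes, and their median log2 fold change was 0.04. Among 13 other core cleavage and polyadenylation genes 1 rose and 1 fell, with a median of -0.05. PCF11, a subunit of cleavage factor II that also helps polymerase terminate, stood at 50.63, 47.51 and 46.63 CPM in control and at 62.39, 66.81 and 70.37 CPM under the knockdown label. All labelled libraries were above control (1.38-fold, log2 fold change 0.46 ± 0.07 SE, adjusted p = 0.000158, edgeR). PABPN1, the nuclear poly(A)-binding protein, stood at 53.97, 56.58 and 58.90 CPM and at 44.98, 44.98 and 43.13 CPM, lower in all labelled libraries (log2 fold change -0.35 ± 0.07 SE, adjusted p = 0.00144, edgeR). Exons of PCF11 overlap those of the antisense gene PCF11-AS1 (41 to 75 reads per library), and PABPN1 shares exons with the readthrough gene BCL2L2-PABPN1 (3 to 16 reads), so some reads may be assigned either way. The same holds for CNOT1 with SETD6, SCAF8 with TIAM2, PAN2 with CNPY2, CNOT8 with FAXDC2, TOB1 with TOB1-AS1, ITGB1BP1 with ASAP2 and WDR33 with SFT2D3, which share exon sequence.

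Among 10 tested noncanonical poly(A) and uridyl polymerases 2 rose and 1 fell (median 0.05), beside 12.2% and 11.0% of all tested genes. TUT7, a terminal uridylyltransferase that tags messenger RNAs for decay, went from 43.5 ± 1.05 to 69.6 ± 6.23 CPM (SD, n = 3 per group), with all labelled libraries higher (1.60-fold, adjusted p = 5.83e-06, edgeR). TENT5A, a poly(A) polymerase that extends tails in the cytoplasm, went from 177 ± 1.60 to 129 ± 3.66 CPM (log2 fold change -0.45 ± 0.06 SE, adjusted p = 2.75e-05, edgeR). TUT4, the paralogue of TUT7, rose by 0.22 on the log2 scale (adjusted p = 0.0310, edgeR). It went to 0.11 and lost its call with the length and GC trend removed (adjusted p = 0.0759, edgeR). TENT4A was called lower in that fit, at -0.14 (adjusted p = 0.0492, edgeR). The list then held 1 higher and 2 lower (median -0.015), beside 2290 higher and 2261 lower of all 14315 tested genes.

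For histone messenger RNAs, which are cut but not polyadenylated, 3 of 6 factors rose and 0 fell, with a median of 0.29, beside 12.2% of all tested genes called higher and 11.0% lower. At an unadjusted p under 0.05 the counts were 4 and 0. DESeq2 called 2 and 0, beside 1397 higher and 1175 lower of all 14315 tested genes. The 3 that rose by the edgeR test were CASP8AP2, LSM11 and NPAT. CASP8AP2 is a histone locus body protein (log2 fold change 0.41, adjusted p = 0.00188, edgeR). LSM11 of the U7 particle was at 0.41, and NPAT, the activator of histone gene transcription, at 0.37. With the length and GC trend removed, 5 of the 6 factors were called higher and 0 lower. Over all 14315 tested genes that fit called more in both directions, 2290 higher and 2261 lower. CASP8AP2, LSM11 and NPAT kept their calls in that fit, at 0.27, 0.31 and 0.24. Over the 13 other settings CASP8AP2 was called in 13, LSM11 in 11 and NPAT in 6. NPAT was not called with DESeq2 or with the replicate number as a block. It was called in 2 of the 6 fits that leave out a library. Of 12 termination genes 4 rose and 0 fell by the edgeR test (median 0.10), against 12.2% and 11.0% of all tested genes. The counts were the same at an unadjusted p under 0.05 and with DESeq2 (1397 higher and 1175 lower over all tested genes). Among the termination genes SCAF8, CDK12 and PPP1R10 rose by 0.25, 0.23 and 0.20 on the log2 scale. With the trend removed CDK12 was still called at 0.14, and PPP1R10 went to 0.08 and lost its call (adjusted p = 0.188, edgeR). Of the 6 fits that leave out a library, CDK12 was called in 2 and PPP1R10 in 3.

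In the Integrator complex, which cuts small nuclear and enhancer RNAs, 3 of 14 genes rose and 0 fell (median -0.0017). Of all tested genes 12.2% rose and 11.0% fell. The counts were the same at an unadjusted p under 0.05 and with DESeq2 (1397 higher and 1175 lower over all tested genes). The 3 that rose were INTS4, part of the nuclease module (log2 fold change 0.34, adjusted p = 0.00259, edgeR), INTS1 (0.25) and INTS7 (0.22). Of 6 PAF1 complex genes, which accompany elongating polymerase, CTR9 rose by 0.31 (adjusted p = 0.00366, edgeR) while WDR61 fell by 0.33 and RTF1 fell by 0.21. Of 3 proteins of the U1 particle, which shields transcripts from early cleavage, SNRPA fell by 0.22 and 0 rose. DESeq2 gave the same counts, while 2 were lower and 0 higher at an unadjusted p under 0.05. With the length and GC trend removed SNRPA was at -0.10 (adjusted p = 0.0998, edgeR), and 0 of the 3 were called. Among 16 deadenylation genes CNOT1, the CCR4-NOT scaffold, rose by 0.30 (adjusted p = 0.00609, edgeR) and PAN2 by 0.23, while TOB1, which recruits the deadenylase, fell by 0.35 (adjusted p = 0.00147) and CNOT8, a deadenylase, fell by 0.22. CNOT1 was still called with the trend removed, at 0.18.

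Of the 23 called genes on these lists, 10 kept their call in all 6 fits that leave out a library, among them PCF11, PABPN1, TUT7, TENT5A, CASP8AP2, INTS4, CTR9, TOB1 and CNOT1. The other 13 lost it in at least 1 fit. Counting CPSF2, AURKA and ITGB1BP1 as well, 13 calls were lost without control replicate 2 (adjusted p from 0.0748 to 0.184), 14 without control replicate 3 (0.0713 to 0.243), 15 without labelled knockdown replicate 2 (0.0518 to 0.171) and 8 without labelled knockdown replicate 3 (0.0705 to 0.162). INTS7 was the only gene to lose its call without control replicate 1 (0.0505), and CNOT8 the only 1 without labelled knockdown replicate 1 (0.0659). INTS7 and CNOT8 were each called in only 1 of the 6 fits. With the length and GC trend removed, the 8 lists held 17 higher and 9 lower genes, and their median was 0.01. Over all 14315 tested genes that fit called 2290 higher and 2261 lower. WDR33, the hexamer-binding partner of CPSF4, and the phosphatase subunit PPP1CB, both named after their values were seen, were then called lower, at -0.30 (adjusted p = 4.88e-05) and -0.25 (adjusted p = 8.02e-05, edgeR). Without that step they had been at -0.11 and -0.18 and not called.

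**Figure D5:**
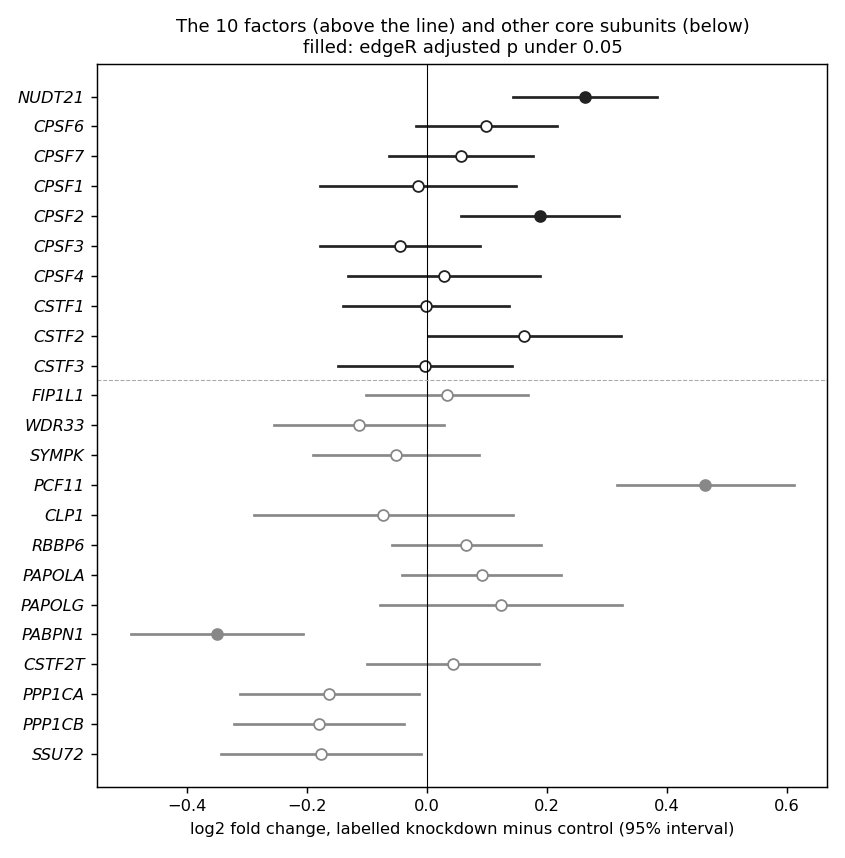
Log2 fold change, labelled knockdown minus control, with 95% intervals (horizontal axis) for the 10 factors and the other core cleavage and polyadenylation genes; filled points passed the edgeR threshold. The filled points are NUDT21 (0.26), CPSF2 (0.19) and PCF11 (0.46) above 0 and PABPN1 (-0.35) below it. The intervals of CSTF2, above 0, and of PPP1CA, PPP1CB and SSU72, below 0, also exclude 0, but these genes were not called.

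For each called factor 3 further genes were taken by the likeness of their log2 CPM over the 6 libraries. For NUDT21 these were GART, an enzyme of purine synthesis (Pearson r 0.998), MCFD2, a cargo receptor partner in the secretory pathway (0.997), and KIAA0040 (0.996). For CPSF2 they were FNDC3A, CCDC14 and ABHD2, each with r of 0.999. With 6 points in 2 groups, r mostly reflects the group difference, and such values describe these libraries only. Of the genes in the study's title, NONO had a log2 fold change of -0.05 (adjusted p = 0.532, edgeR), PRMT1 -0.02 (0.890) and MYC 0.05 (0.690).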

How the data were processed

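Total RNA of LN229 cells gave 6 stranded libraries, per the labels' protocols. Trim Galore, HISAT2, FastQC, MultiQC and the build hg19 appear in the submitters' processing notes. For the counting program, strand setting and annotation, the sources used here give nothing. Each library's deposited table gives the authors' whole-number counts per gene, not normalised. The deposited FPKM are those counts divided by gene length and by the library's total, and served for levels and ratios. The deposited TPM were not used.

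Counts were fitted in R 4.3.3 with edgeR 4.0.16 (filterByExpr, TMM, glmQLFit and glmQLFTest, group as the only term), with a call at an adjusted p (Benjamini-Hochberg, over 14315 tested genes) under 0.05. Log2 fold changes are labelled knockdown minus control. CPM use TMM-scaled library sizes (factors 0.995 to 1.00). Depth limits precision through the number of reads per gene, and no library was a copy of another in its group (chi-square over degrees of freedom 1.95 to 8.54 for the pairs). Alternatives were RLE scaling, DESeq2 1.42.0, limma-voom (limma 3.58.1), no low-count filter, a replicate block, length and GC offsets (smooth terms per library, mgcv 1.9.3, GC for 95.3% of tested genes and all members), both together, and leaving out each library. Ratios were tested by exact permutation. The fit was also tested on simulated data.

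The members and lists were chosen with earlier results of these data known. Named genes were the members, TRIM25, NONO, PRMT1, MYC, CSTF2T, called list genes up to 4 per list by smallest adjusted p, the nearest divergent gene starting within 1000 bases upstream, and the 3 protein-coding genes most correlated with each called member. Of these, 1 list gene is part of the counts only and is not reported here. Neighbours and promoters came from RefSeq GRCh38.p14, except the AURKA start (GENCODE v29), and no coordinates of the files' build are given.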

Additional observations from a re-analysis of the deposited data

How the results depend on the processing

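NUDT21 was called higher under every alternative run. With the replicate number as a block, 1 member was called higher (NUDT21), 9 list genes were called higher and 4 lower, and over all genes 967 were higher and 924 lower. Same-numbered libraries did not deviate together (correlations of deviations -0.19, 0.0082 and -0.22), so the numbers show no pairing. Leaving out each library in turn gave 1 to 2 members higher, 8 to 20 list genes higher and 3 to 11 lower, and 930 to 2622 genes higher and 866 to 2319 lower over all genes. The fewest genes higher over all came without control replicate 2 (930), and the fewest lower without labelled knockdown replicate 2 (866). The most in both directions, 2622 and 2319, came without labelled knockdown replicate 1, beside 1753 and 1577 with all 6 libraries. No result named here reversed its direction as a called value. The cause of these shifts was not tested. With 3 libraries a group, 0.1 is the smallest exact p for a ratio.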
